A study of Arabidopsis thaliana with 21 samples.

Results

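The genes described here are encoded in the chloroplast and mitochondrial genomes of Arabidopsis thaliana. They were taken from the array annotation as probe sets that map to 1 gene of either organelle genome, with 1 probe set kept per gene. This gave 69 chloroplast genes and 16 mitochondrial genes, 85 of the 13350 genes that the annotation names singly. The RefSeq TAIR10.1 table, used for names and gene order, lists 78 distinct plastid protein-coding symbols and 33 mitochondrial protein-coding genes. The chloroplast genes were matched by gene ID. The annotation's IDs of the mitochondrial probe sets were not in that table, so those genes were matched by name, which gave 23 probe sets. nad1 and nad5 had several of these, and the probe set with the highest mean signal was kept.

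Transcripts were measured on 21 one-colour arrays, 3 biological replicates in each of 7 groups. All plants were Col-0 in background, had grown in soil for 3 weeks at 22 °C with a 12 h photoperiod, and were sampled as whole aerial parts. Plants kept at 22 °C were wild type (WT), lacked a pair of CAMTA genes (camta1/2, camta2/3 or camta1/3), or carried the triple combination camta1/2/3. WT and camta1/2/3 were also sampled after 24 h at 4 °C. CAMTA genes encode calmodulin-binding transcription activators, and the design asks how their loss changes expression in warmth and in cold. The labels do not name the mutant alleles, and no probe set named here lies in CAMTA1, CAMTA2 or CAMTA3, so the genotypes were not checked on the arrays.

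A chloroplast genome codes for core subunits of the photosynthetic complexes, the large subunit of Rubisco, part of the plastid ribosome and a bacterial-type RNA polymerase, while the nucleus codes for the remaining subunits and for phage-type polymerases that serve plastids and mitochondria. Many chloroplast genes lie in clusters that are transcribed together and then cut and edited. A plant mitochondrial genome codes for a few subunits of the respiratory complexes, for cytochrome c maturation factors and for some ribosomal proteins. Stable poly(A) tails mark nuclear messengers, whereas in both organelles a tail marks an RNA for decay. Per the labels the RNA was amplified with a MessageAmp kit, a method that starts from poly(A) tails, so the signals are those of organelle RNA that entered such an amplification. The arrays were of aerial tissue in bulk, in which fewer organelles or cells and less RNA in each cannot be told apart.

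Values are log2 signals normalised with GCRMA by the authors, and differences are between log2 group means. The series spans log2 signals of 2.17 to 14.27, with array medians of 4.86 to 5.01. The difference between the 3′ and the 5′ control probe sets of actin, which is wider where RNA or its copies are short, was 2.23 ± 0.21 in WT and 2.90 ± 0.13 in camta1/2/3 at 22 °C (SD, n = 3). At 22 °C the triple mutant arrays did not overlap with WT. In cold it was 2.67, 4.25 and 2.41 in the triple mutant and 1.57, 2.71 and 1.71 in WT, and these overlapped, with replicate 2 the widest of each group. RCA, the leaf-abundant Rubisco activase, had group means of 12.73 to 13.66, the root hair expansin EXPA7 sat at 2.17 in every group, and none of the 4 flower markers was measured. PYK10, a beta-glucosidase abundant in roots, fell in cold in both genotypes, from 7.97 ± 0.48 to 6.4 ± 0.05 in WT.

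The 69 chloroplast genes had mean log2 signals between 5.37 and 13.58, and none averaged under 4. By role they were 15 genes of photosystem II, 7 of photosystem I and its assembly, 6 of the cytochrome b6f complex, 6 of the ATP synthase, 10 of the NADH dehydrogenase-like complex, rbcL, 4 of the RNA polymerase, 8 of the small and 7 of the large ribosomal subunit, and 5 others. The others were accD (acetyl-CoA carboxylase), ccsA (cytochrome c synthesis), cemA (an envelope membrane protein), clpP (a protease) and matK (an intron maturase). Replicate arrays spread widely in these genes. The median within-group SD was 0.51, from 0.16 for ndhI to 1.17 for psaA, against a median of 0.20 over all 22746 probe sets tested. Among the 10403 probe sets whose means lie in the same range the median was 0.24. The mitochondrial median was 0.21.

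The spread was typically larger at lower signal. It had a median of 0.61 in the 22 chloroplast genes with a mean under 8, of 0.52 in the 29 between 8 and 11 and of 0.29 in the 18 at 11 and over. By role the median SD was highest for the ATP synthase (0.64) and lowest for accD, ccsA, cemA, clpP and matK (0.36). psbA, which codes for the D1 protein of photosystem II that is replaced as light damages it, read 8.42, 8.55 and 10.54 in the replicates of WT at 22 °C and 7.89, 10.76 and 10.89 in those of camta1/2/3 at 22 °C. psaA, which codes for a reaction centre protein of photosystem I, read 7.37, 7.11 and 9.46 in the same WT arrays and 5.76, 7.18 and 7.99 in those of the triple mutant. Both genes thus differed more among replicates of a group than between the groups. psaB, the partner of psaA in the reaction centre, read 12.34, 12.31 and 12.90 in WT and 12.20, 12.69 and 12.79 in the triple mutant at 22 °C.

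The deviations were shared by most chloroplast genes of an array. In WT at 22 °C, replicate 3 was the highest array of its group for 61 of the 69 genes. In WT at 4 °C, replicate 2 was the highest for 62 genes and replicate 1 the lowest for 50. In camta1/2, replicate 3 was the highest for 59 genes. In camta1/2/3 at 4 °C, replicate 3 was the lowest for 51 genes, and only 4 genes on it lay above their own mean over the 21 arrays. Taking on each array the median deviation of the 69 genes from their means, the 3 arrays of a group spanned 0.24 (camta1/3) to 0.74 (WT at 22 °C), while the means of the 7 groups spanned 0.27. For the 16 mitochondrial genes the arrays of a group spanned 0.03 to 0.15 and the group means 0.12.

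**Figure D1:**
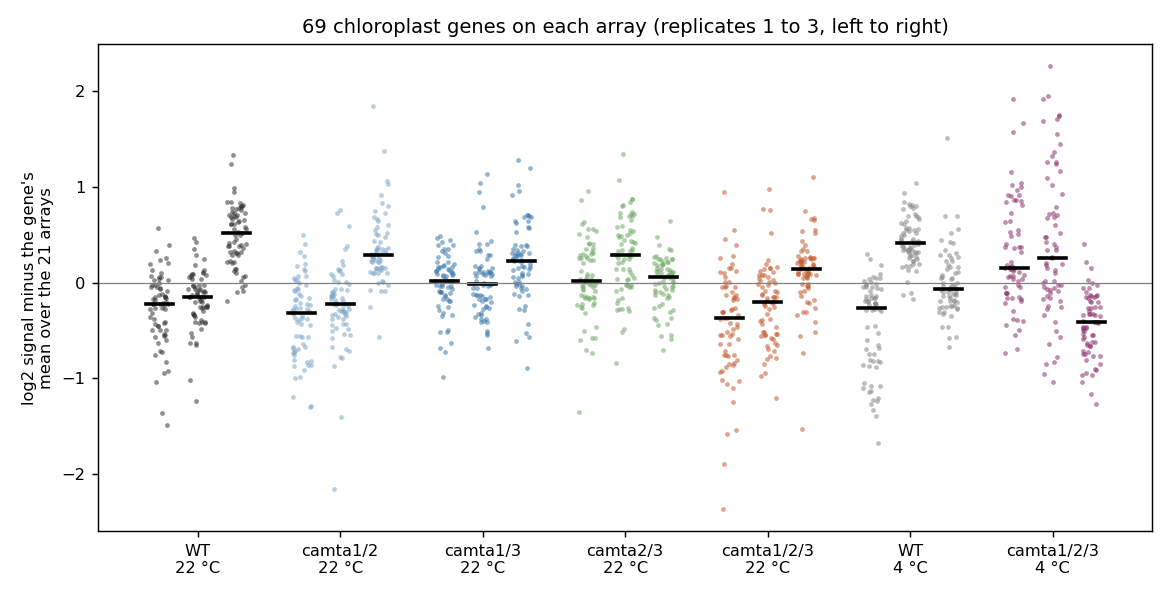
Each point is 1 of 69 chloroplast genes on 1 array, as its log2 signal minus its mean over the 21 arrays (vertical axis), with arrays grouped by genotype and temperature (horizontal axis), replicates 1 to 3 from left to right, and the median of each array as a black bar. Replicate 3 of WT at 22 °C and replicate 2 of WT at 4 °C sit above the others of their groups, replicate 3 of camta1/2/3 at 4 °C sits below, and the 3 bars of a group lie up to 0.74 apart.

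A principal component analysis of the within-group deviations described how the genes moved together. The first component held 53.7% of the variance, and all 69 genes had the same sign on it. The second held 23.4% and set 36 genes against 33. Over the 2346 pairs of chloroplast genes the median correlation of within-group deviations was 0.47, and 90.5% of the pairs were positive. The points are 21 arrays with 14 degrees of freedom, and the genes of a pair share array, RNA and normalization.

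Genes next to each other on the plastid genome, among those measured, had closer deviations. The median correlation was 0.64 over the 68 neighbouring pairs and 0.46 over the others. ndhJ and ndhK, adjacent genes of the NADH dehydrogenase-like complex, had an r of 0.93. The pair of rps4, a ribosomal protein gene, and ndhJ had 0.90, as had the ribosomal protein genes rpl14 and rpl16. rps2 and rpoC2, for a ribosomal protein and a polymerase subunit, had 0.89. The lowest value of a neighbouring pair was -0.23, for ndhK and ndhC of the same complex, and psbK and psbI, small photosystem II subunits, had -0.08.

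The second component followed a ribosomal RNA control. Across the 21 within-group deviations it had a Pearson r of 0.89 and a Spearman rho of 0.86 with the 5S rRNA control probe set, and r was 0.86 without the 2 arrays farthest from the median of that control. Its r with the actin 3′ minus 5′ difference was 0.64. In every group at 22 °C replicate 1 had a positive score on this component and the highest 5S control, and replicate 3 had a negative score. In cold, replicate 2 had the highest score and the highest 5S control of each group. On the first component replicate 1 had the lowest score of every group at 22 °C. The labels do not say whether same-numbered replicates share a batch. The first component had an r of 0.18 with the 5S and of 0.46 with the 25S rRNA control. Of the 69 genes, 15 had an r over 0.5 with the 5S control and none had one under -0.5. With the actin 3′ minus 5′ difference 18 had an r over 0.5, among them rps14 (0.86), and with the 25S control 12 did. The highest with the 5S control were petN, a small cytochrome b6f subunit (0.82), rps14, a small ribosomal subunit gene (0.80), petD, subunit IV of cytochrome b6f (0.77), and ndhF (0.75). The lowest were atpB, the beta subunit of the ATP synthase (-0.48), psbA (-0.39) and rbcL (-0.37).

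**Figure D2:**
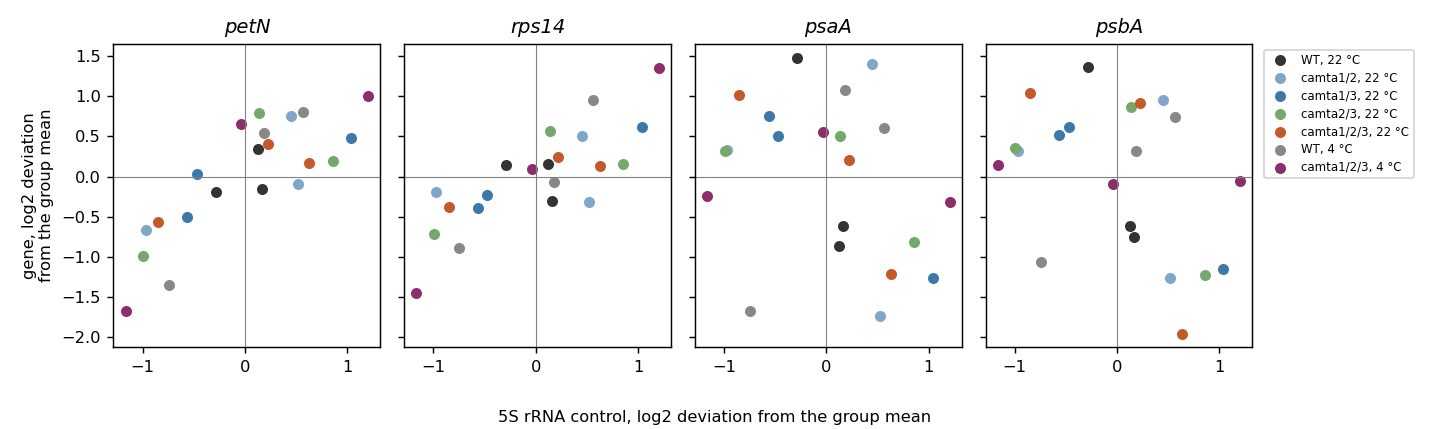
The log2 deviation of 4 chloroplast genes from their group means (vertical axis) is plotted against that of the 5S rRNA control probe set (horizontal axis), with 1 point for each of 21 arrays, coloured by group. petN and rps14 climb with the control (r of 0.82 and 0.80), whereas psaA and psbA do not (-0.30 and -0.39).

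The 5S control had group means of 4.36 to 4.77 in 6 groups and of 5.63 ± 1.19 (SD, n = 3) in camta1/2/3 at 4 °C. It was thus highest and most scattered in the cold triple mutant, the group in which petN, petD and rps14 also had their highest means. rps14 read 6.93, 8.19 and 5.38 there, against 4.54, 6.38 and 5.35 in WT at 4 °C. petN read 10.11, 10.46 and 7.78 there, against 7.21, 9.36 and 9.10 in WT. In both genes 2 of the 3 triple mutant arrays lay above all WT arrays, and replicate 3 lay within the WT range.

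Genes were tested with limma over all probe sets and are said to be called at a Benjamini-Hochberg adjusted p under 0.05. The median standard error of a difference was 0.40 for the chloroplast genes, 0.17 for the mitochondrial genes and 0.16 over all probe sets, so a chloroplast gene had to differ more to be called.

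In WT after 24 h at 4 °C, no chloroplast gene was called in either direction, while 23.1% of all probe sets were. At an unadjusted p under 0.05 limma also gave 0 of the 69 genes, beside 32.8% of all probe sets. The differences of cold minus warm ran from -0.82 (rps14) to 0.81 (psbA), 34 above and 35 below 0, with a median of -0.00 beside 0.00 over all probe sets, and the lowest adjusted p was 0.211. The cold and warm arrays did not overlap in 2 genes, ndhI and psbF, both lower in cold, beside 31.3% of all probe sets. Without replicate 2 of WT at 4 °C, 1 gene was called, petB (-0.44, adjusted p = 0.00565), beside 21.1% of all probe sets in that fit.

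By role, 9 of the 10 genes of the NADH dehydrogenase-like complex, which carries electrons around photosystem I, had a negative difference (median -0.26), and 5 of 6 ATP synthase genes a positive one (median 0.07). rbcL, the large subunit of the carbon-fixing enzyme Rubisco, read 9.64, 9.82 and 10.47 at 22 °C and 10.24, 10.70 and 10.87 at 4 °C. The lowest cold array lay below the highest warm array, and the difference was 0.63 ± 0.34 (SE; adjusted p = 0.230, limma), with a 95% interval of -0.11 to 1.36. For psbA the interval was wider, -1.06 to 2.68 around 0.81, and for psaB it was -0.40 to 0.56 around 0.08.

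In camta1/2/3 after 24 h at 4 °C, again no chloroplast gene was called, while 22.2% of all probe sets were. At an unadjusted p under 0.05 limma gave 5 genes, beside 32.0% of all probe sets, petD and psaC higher and ndhI, psbI and psbK lower in cold. Differences were positive in 50 of 69 genes, with a median of 0.17 and a range of -0.64 to 1.77, and the lowest adjusted p was 0.0690, for ndhI. The groups did not overlap in 3 genes, rbcL higher and ndhI and rps18 lower, beside 29.3% of all probe sets.

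petD had the widest difference. It read 6.13, 6.71 and 5.62 at 22 °C and 9.06, 8.38 and 6.34 at 4 °C in the triple mutant. Replicates 1 and 2 in cold lay above all warm arrays and replicate 3 lay within them. The difference was 1.77 ± 0.68 (adjusted p = 0.0776, limma). petD also had the widest range of group means of any chloroplast gene, 1.77, followed by psaA (1.68) and petN (1.64).

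psaC, which codes for the iron-sulphur protein of photosystem I, read 7.32, 7.16 and 8.02 in warmth and 8.98, 9.70 and 7.23 in cold, where replicate 3 was again the low array. ndhI, a subunit of the NADH dehydrogenase-like complex, read 12.86, 12.58 and 12.90 in warmth and 12.36, 12.57 and 12.40 in cold. Its groups touched without overlapping, and the difference was -0.34 ± 0.13 (adjusted p = 0.0690, limma). rbcL read 9.15, 10.20 and 10.27 in warmth and 10.73, 10.38 and 10.39 in cold, a difference of 0.63 ± 0.34 with the same interval as in WT.

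1 array decided this count. Without replicate 3 of camta1/2/3 at 4 °C, the array on which 51 of the genes were lowest, limma called 12 of the 69 chloroplast genes, all higher in cold, beside 20.1% of all probe sets called in that fit, and 9.28% called higher. They were petD, petG, petL and petN of cytochrome b6f, psaC and ycf4 of photosystem I and its assembly, psbD and psbN of photosystem II, rps14 and rpl20 of the ribosome, ndhG and accD. petD then differed by 2.57 (adjusted p = 0.00950) and psaC by 1.84 (adjusted p = 0.00212). The 2 arrays then left in the cold triple mutant had the highest 5S control of the series, 5.59 and 6.83. Among the 12 genes, petN, rps14 and petD had the highest r with that control (0.82, 0.80 and 0.77) and psbD the lowest (0.32). Whether these calls follow the control was not tested. Leaving out other arrays of these groups gave 0 or 1 gene, lower in cold.

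The difference between these 2 cold responses was tested as an interaction of genotype and temperature. No chloroplast gene was called, beside 1.97% of all probe sets, and limma gave 3 at an unadjusted p under 0.05, beside 13.2%. These were petD (2.06 ± 0.96, adjusted p = 0.375), rps14 (1.90 ± 0.84, adjusted p = 0.338) and psbI (-0.52 ± 0.24, adjusted p = 0.366). All 6 cytochrome b6f genes had a positive interaction, from 0.03 to 2.06, as had 8 of 10 NADH dehydrogenase-like genes. Over all 69 genes 46 were positive. The median was 0.48 for cytochrome b6f, 0.56 for the NADH dehydrogenase-like complex and 0.17 over the 69 genes.

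**Figure D3:**
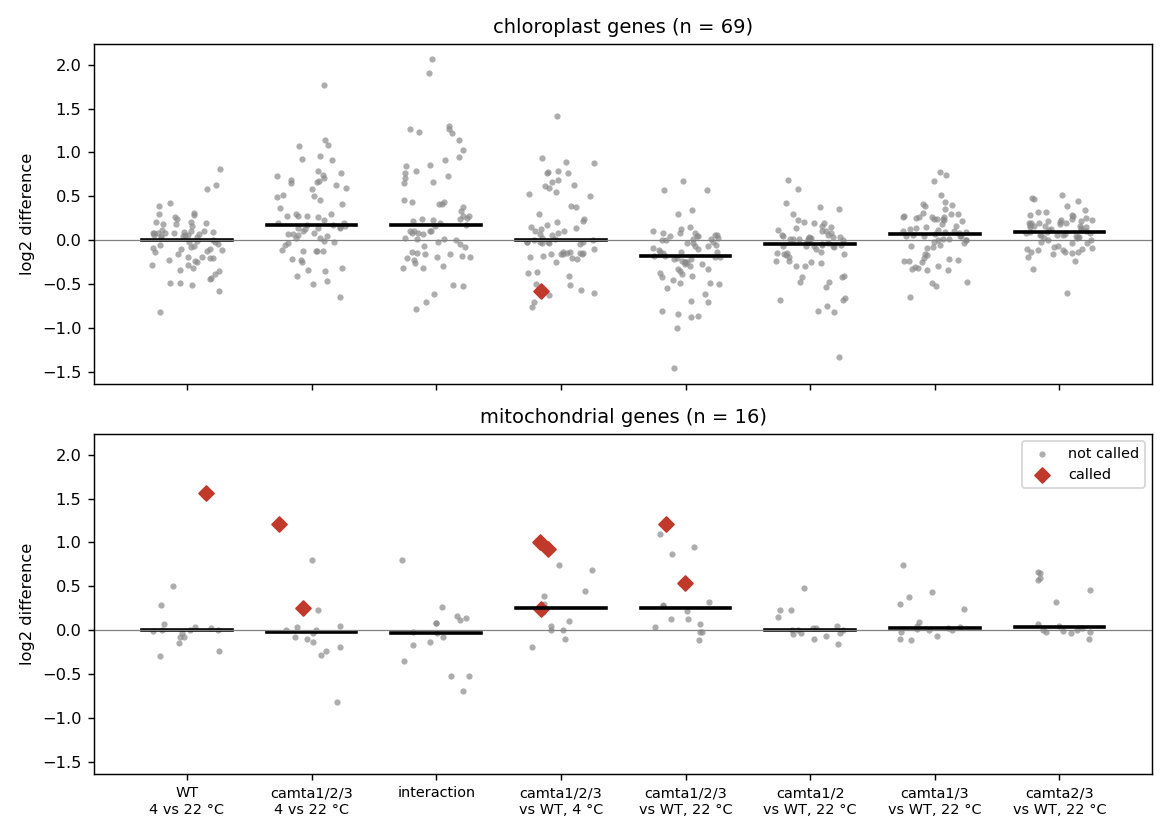
Each point is 1 gene, with its log2 difference (vertical axis) in the 8 comparisons tested (horizontal axis), chloroplast genes above and mitochondrial genes below, red diamonds marking genes called by limma at an adjusted p under 0.05 and black bars the medians. The single called chloroplast gene lies below 0 and the 8 mitochondrial calls lie above it.

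At 4 °C, atpB was the 1 chloroplast gene called between camta1/2/3 and WT, and it was lower, beside 10.6% of all probe sets called lower and 21.1% called in all. atpB read 12.76, 12.97 and 12.50 in WT and 12.41, 11.80 and 12.28 in the triple mutant. The groups did not overlap, with 12.50 and 12.41 as the nearest arrays. The difference was -0.58 ± 0.19 (adjusted p = 0.0418, limma). The call was lost under 8 of 15 alternatives, among them quantile normalization and the actin and 5S covariates, and its adjusted p then reached 0.417. The count was 0 without replicate 1 of WT at 4 °C and without replicate 2 of camta1/2/3 at 4 °C, and 2 without replicate 1 of the latter. At 22 °C atpB read 12.56, 12.48 and 12.96 in WT and 12.10, 12.02 and 12.72 in the triple mutant, a difference of -0.39 ± 0.19 that was not called (adjusted p = 0.177).

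Over the 69 genes at 4 °C the median difference was -0.00, from -0.76 (psbC) to 1.41 (rps14), and 5 had an unadjusted p under 0.05, beside 31.8% of all probe sets. The arrays of the genotypes did not overlap in 6 genes, all lower in the mutant, beside 27.9% of all probe sets in either direction and 14.3% lower. Besides atpB these were psbC, ndhI, psbI, rpl22 and rps18. psbC, which codes for an inner antenna protein of photosystem II, read 9.94, 10.27 and 10.37 in WT and 9.66, 9.11 and 9.54 in the triple mutant (-0.76 ± 0.30, adjusted p = 0.0907). Without replicate 3 of camta1/2/3 at 4 °C, 9 of the 69 chloroplast genes were called, all higher in the mutant, beside 19.9% of all probe sets called in that fit, and 10.3% called higher. Of these, 7 were among the 12 genes named above (accD, ndhG, petG, psaC, psbN, rps14 and ycf4), and ndhD and ndhE were not. Both counts use the same cold triple mutant arrays.

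At 22 °C no chloroplast gene was called between camta1/2/3 and WT, beside 23.5% of all probe sets, and limma gave 1 gene, petD, at an unadjusted p under 0.05, beside 32.9%. Differences were negative in 48 of 69 genes, with a median of -0.18 and a range of -1.46 to 0.68. petD read 7.54, 7.43 and 7.87 in WT and 6.13, 6.71 and 5.62 in the triple mutant. All 3 mutant arrays lay below the WT arrays, and the difference was -1.46 ± 0.68 (adjusted p = 0.148). Besides petD, 4 genes did not overlap, petG, psbD, psbN and ycf3, also lower in the mutant, beside 17.5% of all probe sets lower without overlap and 32.5% in either direction. ycf3, which codes for an assembly factor of photosystem I, read 8.67, 8.86 and 9.72 in WT and 8.07, 8.14 and 8.62 in the mutant. Without replicate 3 of camta1/2/3 at 22 °C, 1 gene was called, atpB (-0.61, adjusted p = 0.0260), beside 19.5% of all probe sets in that fit.

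By role at 22 °C, 9 of 10 NADH dehydrogenase-like genes, 5 of 6 cytochrome b6f genes and 6 of 7 large ribosomal subunit genes had negative differences, and 3 of 4 RNA polymerase genes positive ones. With the actin 3′ minus 5′ difference as a covariate, 2 genes were called, rps14 (-1.42, adjusted p = 0.00955) and psbN (-1.1, adjusted p = 0.0405), both lower in the mutant. In that fit 20.1% of all probe sets were called. Without the covariate neither gene was called. The difference was then -0.49 for rps14, and psbN had means of 7.53 in WT and 7.08 in the mutant. The covariate did not overlap between these groups, so the larger differences rest on extending its fitted slope.

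None of the chloroplast genes was called in the double mutants against WT, and limma gave 0 at an unadjusted p under 0.05 in each of these 3 comparisons. The share of all probe sets called was 0.163% in camta1/2, 2.21% in camta1/3 and 10.1% in camta2/3, and at the unadjusted threshold 7.89%, 11.9% and 22.0%. Median differences were -0.04 in camta1/2, 0.07 in camta1/3 and 0.09 in camta2/3. petD was the lowest in camta1/2, at 6.59, 4.99 and 7.25 (-1.34 against WT, adjusted p = 0.694), and its arrays lay below those of WT, as did those of ndhD, ndhG and petB, beside 9.09% of all probe sets without overlap. rpl32, a large ribosomal subunit gene, did not overlap with WT in camta1/3 (0.40, adjusted p = 0.599) and camta2/3 (0.25, adjusted p = 0.674) and was higher in both, beside 12.8% and 24.6% of all probe sets without overlap. These comparisons and that of the triple mutant share the WT arrays.

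psaA and psbA had the largest within-group SDs of the chloroplast genes, 1.17 and 1.11, so every other gene spread less. Some of the genes with the highest mean signal of their role class follow. rps4 ran from 12.24 to 13.03 over the 21 arrays, and petB, which codes for cytochrome b6, from 11.70 to 12.41. rpoA, the alpha subunit of the plastid polymerase, ran from 10.22 in camta1/2/3 at 4 °C to 11.37 in camta2/3. psbM, a small photosystem II subunit, had both its lowest and its highest array in camta1/2/3 at 4 °C, where it read 12.06, 12.88 and 11.43.

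Of the 16 mitochondrial genes, 8 code for subunits of complex I, 2 for complex IV, 4 for cytochrome c maturation, and matR and mttB for an intron maturase and a membrane transporter. Their mean signals ran from 2.24 to 7.18, and 11 of them averaged under 4, where many arrays carried 1 repeated value. The values came without detection calls, so whether such signals lie above background is not known, and their fitted differences are those of the deposited values. Of the 16 probe sets, 5 are of the kind that the array design marks as shared between sequences, those of ccmFC, matR, mttB, nad5 and nad6. Arabidopsis chromosome 2 carries a large copy of mitochondrial DNA, and RNA of a mitochondrial gene and of such a copy cannot be told apart.

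cox1, the catalytic subunit of cytochrome c oxidase, was higher in cold in both genotypes. In WT it read 4.71, 5.16 and 5.93 at 22 °C and 6.46, 7.51 and 6.52 at 4 °C. In camta1/2/3 it read 5.84, 6.39 and 6.86 at 22 °C and 7.52, 7.77 and 7.43 at 4 °C. Every cold array lay above every warm array of the same genotype.

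cox1 was the 1 mitochondrial gene of 16 called in WT, beside 23.1% of all probe sets, with a difference of 1.56 ± 0.40 (adjusted p = 0.00985, limma). Without replicate 2 of WT at 4 °C the difference was 1.22 (adjusted p = 0.0515) and the count was 0, and with only the WT arrays fitted the adjusted p was 0.105. In camta1/2/3 the difference was 1.21 ± 0.40 (adjusted p = 0.0412), beside 22.2% of all probe sets called, and the call was lost in 5 of 6 fits that left out 1 array, all but that without replicate 3 of camta1/2/3 at 22 °C. The interaction was -0.35 ± 0.57 (adjusted p = 0.867), with a 95% interval of -1.56 to 0.86. Against WT the triple mutant differed by 1.1 ± 0.40 at 22 °C (adjusted p = 0.0613, and 0.0210 where only probe sets with a mean of at least 4 were tested) and by 0.74 ± 0.40 at 4 °C (adjusted p = 0.224). The difference at 22 °C was called without replicate 3 of WT (1.43, adjusted p = 0.0281) or replicate 1 of camta1/2/3 (1.36, adjusted p = 0.0424). cox1 had the widest range of group means of all 85 genes, 2.31, from WT at 22 °C to camta1/2/3 at 4 °C, with the 3 double mutants between these.

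cox2, the other complex IV gene, did not follow it. It read 3.94, 4.02 and 3.96 in WT at 22 °C and 3.77, 3.96 and 3.96 at 4 °C, a level at which few arrays stood apart.

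ccmB, a cytochrome c maturation factor, was the second gene called in the cold response of camta1/2/3. It lay between 3.42 and 3.61 in the arrays of the other groups and read 3.92, 3.93 and 3.55 in the triple mutant at 4 °C. The difference of 0.25 ± 0.07 (adjusted p = 0.0201) rested on replicates 1 and 2 of that group, and replicate 3 sat at the common value of 3.55. The count of 2 became 0 without replicate 1 of camta1/2/3 at 22 °C and without replicate 1 or 2 at 4 °C. The call of ccmB was lost in 4 of 6 fits that left out 1 array. In WT 1 mitochondrial gene, and in the triple mutant 3, had an unadjusted p under 0.05, beside 32.8% and 32.0% of all probe sets. No mitochondrial gene was called for the interaction, beside 1.97% of all probe sets, and limma gave 1 at an unadjusted p under 0.05, ccmB. Without replicate 3 of camta1/2/3 at 4 °C, 2 were called for the interaction, ccmB (0.39, adjusted p = 0.000639) and nad6 (1.3, adjusted p = 0.00705). In that fit 2.15% of all probe sets were called. Outside replicates 1 and 2 of that group, most arrays sat at a repeated value, 3.55 for ccmB and 2.59 for nad6.

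At 4 °C, 3 mitochondrial genes were called higher in camta1/2/3 than in WT, ccmB, nad1 and nad6, beside 10.5% of all probe sets called higher. nad1, a membrane subunit of complex I, read 2.88, 3.31 and 3.49 in WT and 4.55, 4.75 and 3.39 in the triple mutant (1.0 ± 0.33, adjusted p = 0.0408), and of its 6 further probe sets 1 was called (0.48 ± 0.13, adjusted p = 0.0157) and the others, which differed by -0.00 to 0.14, were not. nad6, another membrane subunit, read 2.59, 2.77 and 2.59 in WT and 3.75, 4.39 and 2.59 in the triple mutant (0.93 ± 0.29, adjusted p = 0.0342). In each of the 3 genes replicates 1 and 2 of the mutant were high, replicate 3 lay at or within the WT values, and the groups overlapped. None of the 3 was called with the actin 3′ minus 5′ difference or the 5S control as a covariate, with which 11.8% and 16% of all probe sets were called. The count was 0 without replicate 1 or 2 of either genotype at 4 °C and 1 without replicate 3 of WT.

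At 22 °C, 2 mitochondrial genes were called higher in camta1/2/3, ccmFC and nad9, beside 11.1% of all probe sets called higher. ccmFC, part of the haem lyase that attaches haem to cytochrome c, read 5.19, 4.39 and 5.34 in WT and 5.44, 6.19 and 6.92 in the mutant. The groups did not overlap, and the difference was 1.21 ± 0.39 (adjusted p = 0.0335, limma). nad9, a peripheral subunit of complex I, read 2.85, 2.80 and 2.85 in WT and 3.56, 2.81 and 3.73 in the mutant (0.53 ± 0.17, adjusted p = 0.0312), and its groups overlapped. Neither was called with the actin covariate, with which 20.1% of all probe sets were called. That covariate did not overlap between these groups. The count was 0 without replicate 2 of WT and 1 without replicate 1 of WT or replicate 2 of camta1/2/3. Without replicate 3 of camta1/2/3 it stayed at 2, but the genes called were nad1 and nad5. Of the 6 fits that left out 1 array, the call of nad9 was lost in 5 and that of ccmFC in 3.

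Of the 16 genes, 6 at 22 °C and 4 at 4 °C had an unadjusted p under 0.05 between camta1/2/3 and WT, beside 32.9% and 31.8% of all probe sets. nad4, the complex I gene with the highest mean, read 6.52, 6.43 and 7.17 in WT and 6.72, 8.38 and 7.86 in the triple mutant at 22 °C (0.95 ± 0.44, adjusted p = 0.149), and was called without replicate 1 of the triple mutant (1.41, adjusted p = 0.0313). ccmFN1, a further part of the haem lyase, differed by 0.33 ± 0.40 (adjusted p = 0.683). At 22 °C the groups did not overlap for ccmFC, nad1 and nad5, beside 32.5% of all probe sets in either direction. At 4 °C they did not overlap for ccmFC alone, higher in the mutant, beside 27.9% of all probe sets.

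**Figure D4:**
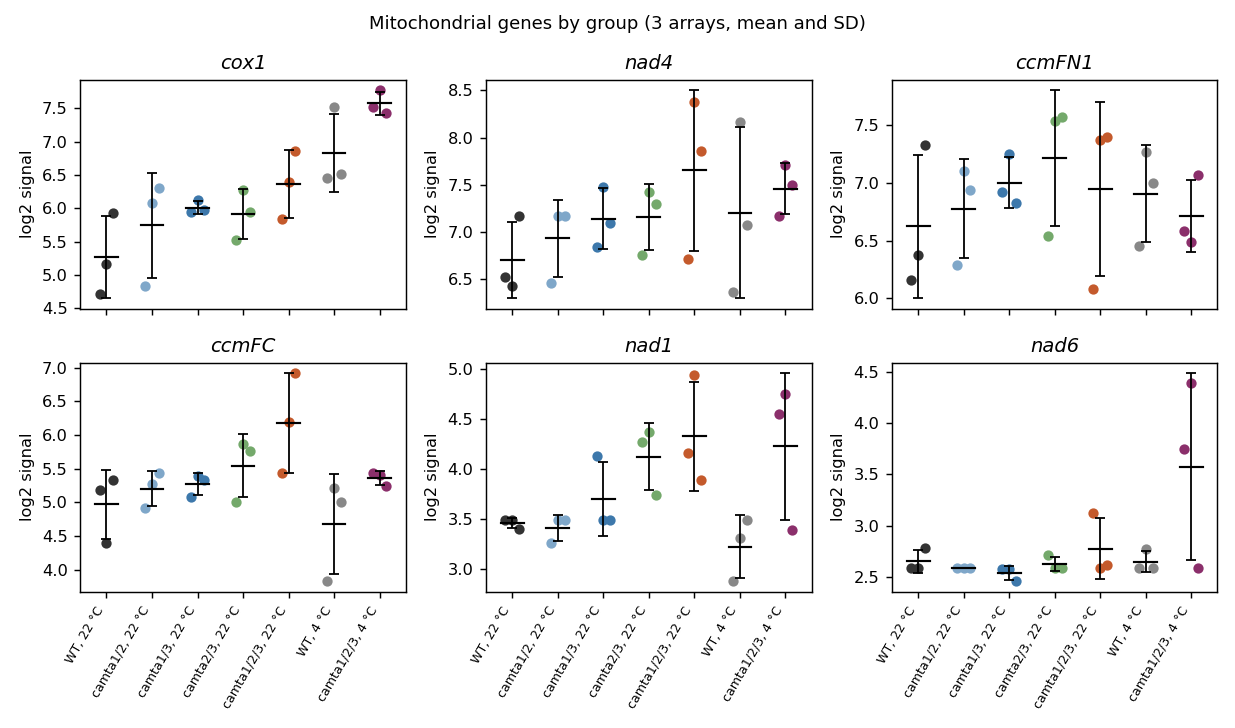
Log2 signals (vertical axis) of 6 mitochondrial genes in the 7 groups (horizontal axis), with 1 point per array and black bars for the mean and SD of 3 arrays. cox1 is highest in the cold groups, ccmFC is highest in camta1/2/3 at 22 °C, and nad6 stands above its common value of 2.59 mainly in replicates 1 and 2 of camta1/2/3 at 4 °C.

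None of the mitochondrial genes was called in a double mutant, and limma gave 0 at an unadjusted p under 0.05 in each. cox1 read 5.94, 6.12 and 5.97 in camta1/3, above all 3 WT arrays (0.74 ± 0.40, adjusted p = 0.527), beside 12.8% of all probe sets without overlap. nad6 read 2.58, 2.58 and 2.46 there, just below the WT arrays. nad1 read 4.27, 4.37 and 3.74 in camta2/3, also above the WT arrays (0.67 ± 0.33, adjusted p = 0.258), beside 24.6% of all probe sets without overlap.

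Nuclear genes for the same complexes were looked up in lists, of which few entries had a probe set of 1 named gene. Of the 28 listed nuclear subunits of the photosystems, cytochrome b6f and the ATP synthase, 5 were measured. All 5 had lower means in cold in both genotypes. In WT 4 of them were called lower, beside 23.1% of all probe sets called in either direction. In camta1/2/3 all 5 were called lower, beside 22.2%. PSAN, a photosystem I subunit, went from 12.83 ± 0.02 to 11.97 ± 0.19 in WT (-0.86 ± 0.17, adjusted p = 0.00153) and from 12.12 ± 0.29 to 10.90 ± 0.33 in camta1/2/3 (-1.23 ± 0.17, adjusted p = 8.14e-05). ATPC1, the gamma subunit of the ATP synthase, fell by 0.57 in both. Against WT all 5 had negative differences in camta1/2/3 at both temperatures. Of these 4 were called at 4 °C, beside 10.6% of all probe sets called lower, and 3 at 22 °C, beside 12.4%, and PSAN was called lower in camta2/3. Within single groups the SD of these 5 genes was 0.02 to 0.49. All 4 measured genes of 23 listed for Rubisco and the antenna had lower means in cold in both genotypes. Of these, 3 were called lower in WT and 2 in camta1/2/3, beside the same shares of all probe sets. LHCB4.2, an antenna protein of photosystem II, fell in both, with differences of -2.17 ± 0.17 in WT and -1.58 ± 0.17 in camta1/2/3. RCA and LHCB4.2 of this list were already known from an earlier description of these data and are no independent support. Whether the nuclear and the chloroplast genes differ in their change was not tested.

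Of 14 genes listed for RNA stability in organelles, 4 were measured. CP33B and CP28A, which code for chloroplast RNA-binding proteins, were called lower in cold in both genotypes, by 0.57 and 0.73 in WT. Of all probe sets 23.1% in WT and 22.2% in camta1/2/3 were called in either direction. CP29B, also on this list, did not fall. It was 10.78 ± 0.09 at 22 °C and 10.83 ± 0.04 at 4 °C in WT, and 10.49 ± 0.25 and 10.55 ± 0.26 in camta1/2/3. mtPNPase, which codes for the mitochondrial polynucleotide phosphorylase that degrades RNA, rose in WT from 3.89 ± 0.18 to 5.01 ± 0.32 (1.12 ± 0.20, adjusted p = 0.000562). In camta1/2/3 it was 3.67 ± 0.05 and 4.13 ± 0.46, not called between temperatures. The interaction was -0.66 ± 0.28 and was not called (adjusted p = 0.30). At 4 °C it was lower than in WT (-0.88 ± 0.20, adjusted p = 0.00440). RPOTmp, a phage-type polymerase of both organelles, rose by 0.36 in WT in cold (adjusted p = 0.0341), at a low signal of 3.42 and 3.78. It was the 1 measured gene of 9 listed polymerases and sigma factors, and none of 13 listed polymerase-associated proteins was measured.

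Among 7 measured nuclear genes of 20 listed for mitochondrial respiration, NDB2, an external NADH dehydrogenase, and CYTC-2, cytochrome c, rose in cold in both genotypes. NDB2 went from 6.97 ± 0.20 to 9.48 ± 0.22 in WT (2.51 ± 0.20, adjusted p = 3.48e-07) and from 7.06 ± 0.22 to 9.02 ± 0.15 in camta1/2/3. CYTC-2 rose by 0.91 ± 0.11 in WT and by 0.89 ± 0.11 in camta1/2/3. COX6A, a nuclear subunit of the complex that holds cox1, fell by 0.34 in WT and by 0.36 in camta1/2/3, and COX5B-2 fell by 0.36 in WT.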

How the data were processed

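Biotin-labelled RNA of 21 samples was hybridised to 1-colour arrays, per the labels. The deposited table holds log2 values that the authors normalised with GCRMA, per the submitters' processing notes, which also name limma. Their versions were not given in the sources used here. Of 22810 probe sets, 64 controls were left out and 22746 were tested without a filter. The 20 organelle probe sets annotated to several genes were not counted as members.

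A model of 7 group means was fitted with limma 3.58.1 (R 4.3.3, lmFit and eBayes, 14 residual degrees of freedom) and gave 8 two-sided comparisons. The Benjamini-Hochberg adjustment ran over all probe sets of a comparison. Members, lists and alternatives were chosen with earlier results of these data known. Every member could be named. Values per array are given for the called genes and for a part of those with groups that do not overlap, wide ranges or the highest mean of a role class. The fit was tested on simulated data. The number of arrays, 3 per group, limits the precision. Alternatives were other normalizations, a filter on the mean, a replicate block, covariates, a trended variance, the arrays compared alone and leaving out arrays.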

Additional observations from a re-analysis of the deposited data

Results flagged for a closer look

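Signal was also seen in probe sets that were left out because the annotation gives them several genes. Of these, 11 pair a mitochondrial gene with a nuclear locus of chromosome 2, and the signal of the gene and of that copy cannot be told apart. Of the 11, 3 were called higher in camta1/2/3 than in WT at each temperature. Over all probe sets 10.5% were called higher at 4 °C and 11.1% at 22 °C. In camta2/3 1 was called higher, beside 10.1% of all probe sets called in either direction. In cold 1 was called lower in WT and 1 higher in camta1/2/3, beside 23.1% and 22.2%. Those described below were picked as called with a difference of at least 1. The probe set of atp1, the alpha subunit of the mitochondrial ATP synthase, and AT2G07698 read 5.16, 4.94 and 6.03 in WT at 22 °C and 7.16, 7.84 and 7.73 in camta1/2/3 at 22 °C. The groups did not overlap, and the difference was 2.2 ± 0.36 (SE; adjusted p = 0.000348, limma). At 4 °C the probe set read 5.70, 6.59 and 5.97 in WT and 7.53, 7.72 and 7.59 in camta1/2/3, a difference of 1.53 ± 0.36 (adjusted p = 0.00634). In camta2/3 it read 6.38, 7.02 and 6.71, which is 1.33 ± 0.36 above WT (adjusted p = 0.0274).

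The probe set of cox3, a subunit of cytochrome c oxidase, and AT2G07687 read 2.44, 3.40 and 3.08 in WT and 4.13, 3.90 and 3.92 in camta1/2/3 at 4 °C, a difference of 1.01 ± 0.22 (adjusted p = 0.00385). These probe sets were not tested under the alternatives.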

How the results depend on the processing

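Of 252 recomputed counts of called genes, 203 stayed within 1.5 times the reported count and 49 did not. Most reported counts were 0, so this tally says little about how stable a count is. No single called gene changed direction, and its call was lost in 62 of 130 recomputations. The cause was not tested except where the setting removes arrays or genes. With only the arrays of the groups compared, which leaves fewer residual degrees of freedom, the mitochondrial counts became 0 for the cold response of WT (from 1), of camta1/2/3 (from 2), and for camta1/2/3 against WT at 4 °C (from 3) and at 22 °C (from 2), and the chloroplast count at 4 °C became 0 (from 1), while the share of all probe sets called became 13.8%, 10.8%, 8.85% and 14.3% in that order. Keeping only probe sets with a mean of at least 4, which removes 11 mitochondrial genes, gave 2 chloroplast and 1 mitochondrial genes for the cold response of camta1/2/3 and 3 chloroplast and 0 mitochondrial genes at 4 °C. Quantile normalization gave 0 chloroplast genes at 4 °C and 1 mitochondrial gene at 22 °C. With the actin 3′ minus 5′ difference as a covariate there were 0 chloroplast and 0 mitochondrial genes at 4 °C, and 2 chloroplast and 0 mitochondrial genes at 22 °C. The 5S control as a covariate, chosen like the 25S control after seeing the data, gave 1 chloroplast gene for the cold response of camta1/2/3, 0 chloroplast and 0 mitochondrial genes at 4 °C and 1 chloroplast gene at 22 °C. The 25S control gave 2 chloroplast genes and 1 mitochondrial gene for the cold response of camta1/2/3. In that response the 5S control called 20.9% of all probe sets and the 25S control 21.1%. At 4 °C and 22 °C quantile normalization called 22.7% and 24.5%. The actin covariate called 11.8% and 20.1%, and the 5S control 16% and 23.6%. Of the 13847 probe sets kept by the filter, 36.2% were called for that cold response and 33.7% at 4 °C.

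Replicate numbers were checked for pairing. Of 21 same-numbered pairs, 10 correlated over 0.1, and all 3 pairs did so only for camta2/3 against WT. There the block changed no call among the organelle genes, while the share of all probe sets called went from 10.1% to 11.4%. Of the 21 arrays, 16 were closest to arrays of their own number. With the replicate block, the cold response of camta1/2/3 had 1 chloroplast gene, and camta1/2/3 against WT had 2 at 4 °C. At 22 °C limma then called 4 mitochondrial genes, ccmFC and nad9 as before and also cox1 (adjusted p = 0.0180) and nad4 (adjusted p = 0.0303). Of all probe sets 23.5%, 22.6% and 25.1% were called in these comparisons, in that order.

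Leaving out each array in turn gave 0 to 1 chloroplast and 0 to 1 mitochondrial genes for the cold response of WT, 0 to 12 and 0 to 3 for that of camta1/2/3, 0 and 0 to 2 for the interaction, 0 to 9 and 0 to 4 for camta1/2/3 against WT at 4 °C, 0 to 1 and 0 to 3 at 22 °C, and 0 of either in the double mutants. The 0 in WT was without replicate 2 at 4 °C, and the 2 of the interaction were without replicate 3 of camta1/2/3 at 4 °C. In these fits 15.8% to 22.6% of all probe sets were called in the comparisons of WT and camta1/2/3 other than the interaction. The SE of a chloroplast gene, 0.40 in the median, sets the size of change that could be called for it.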
